A study of Mus musculus with 8 samples.

Results

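Connexin 43, encoded by Gja1, was studied here in ovulated mouse eggs by comparing one array of knockout (KO) metaphase II (MII) oocytes with one array of wild type (WT) MII oocytes. The pair makes up 2 of the 8 arrays of the series, whose other arrays carry KO and WT blastocysts and implantation sites. The title describes a depletion of connexin 43 that is directed to the oocyte, and the labels give the genotypes only as KO and WT. The promoter that drives the depletion, the strain, the age of the females, the number of oocytes pooled per array and whether cumulus cells were removed are not given in the sources used here. PolyA RNA was labelled with biotin and hybridised to Affymetrix arrays of 45101 probe sets, each a set of short probes for a transcript. Of these, 34958 were annotated to 1 gene and represented 18195 genes. Each gene was followed through its brightest probe set, and the 12010 genes whose mean signal over the pair lay in the upper 50% of all probe sets (a signal of at least 150.9) were kept.

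Connexins form gap junctions, channels that join the cytoplasm of neighbouring cells. In the ovarian follicle, connexin 37 links the oocyte with its granulosa cells, and connexin 43 mainly links the granulosa cells with each other. The MII egg is arrested in meiosis and transcribes almost nothing: its mRNA was made while the oocyte grew in the follicle, is stored, and is translated or destroyed in steps as the egg matures and the embryo takes over. The title of the series points to genes of the ribosome and of translation, so these are described first among the gene groups. With 1 array per genotype there is no replicate and therefore no test: every value below compares 1 KO array with 1 WT array, and a difference between the genotypes and a difference between the arrays cannot be told apart. Differences are log2 of the KO signal minus log2 of the WT signal, so a negative value means that the KO array was dimmer.

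The arrays themselves differed. The 27 probe sets for Bacillus transcripts, which have no mouse target, had (the labels do not say whether such RNA was added) a median signal of 110 on the KO array and 39.1 on the WT array, and 23 of the 27 were brighter on the KO array. The brightest of them read 588 in KO and 171 in WT (the next one, 334 and 137). Signals at or below these levels are called not above the controls of that array: 20.5% of all probe sets were above them in KO and 45.4% in WT. The 18 bacterial and phage hybridization control probe sets were all dimmer on the KO array, 1.88-fold on average. The ratio of the 3' to the 5' probe set of the actin control, which is high for degraded or repeatedly amplified RNA, was 6.68 in KO and 33.4 in WT. Its 5' probe set read 200 in KO and 48.8 in WT, not above the controls on either array. The 3' probe set read 1336 and 1629. The ratio therefore cannot be told apart from the background of each array. The KO array thus had brighter empty controls and dimmer hybridization controls, and a lower 3' to 5' ratio that rested on 5' signal at the control level. The part of these in the differences below was not tested.

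Both arrays carried an oocyte signature. Of 15 marker genes of oocytes, 14 had a probe set, 12 were above the controls on both arrays, and 11 were brighter on both than on any blastocyst or implantation site array. Gdf9, a growth factor secreted by oocytes, read 14153 in KO and 18394 in WT, and was at most 1027 at the other stages. Bmp15, its partner, read 14380 in KO and 10152 in WT. Of the markers, 9 read higher on the KO array. Of 27 cumulus and granulosa markers with a probe set, 6 were above the controls in KO, 20 in WT and 4 on both, with a summed signal of 10713 in KO and 13872 in WT. Of 19 immune and blood markers, 2 were above in KO, 9 in WT and 2 on both, with sums of 8607 and 9621. Stromal and oviduct markers numbered 22, of which 5 were above in KO, 12 in WT and 5 on both, with sums of 15894 and 9725. The control levels differ between the arrays, and over all probe sets 20.5% were above in KO and 45.4% in WT. With the KO level of 588 applied to WT, 6 cumulus and granulosa, 1 immune and blood and 5 stromal and oviduct markers were above it in WT. The oviduct gene Ovgp1 alone read 8096 in KO and 2042 in WT. The defining granulosa markers Amh, Fshr and Nr5a1 were not above the controls on either array, whereas Npr2 (53.3 in KO and 305 in WT) and Btc (66.9 and 202) were above them in WT only. So was the macrophage marker Cd68 (70.8 and 223), while the globin genes Hba-a1 and Hba-a2, the endothelial marker Pecam1 and the stromal marker Lum were not above on either. The part of other cells in the differences below was not tested.

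The targeted transcript could not check the genotype. Gja1 (gene 14609) has 6 probe sets, which read between 11.8 and 353 on the KO array and between 61.4 and 139 on the WT array. None was above the brightest control of its array in either genotype, 3 were lower and 3 were higher in KO, so neither array shows a Gja1 level. The same probe sets reached 44493 on the WT implantation site array, where the transcript was clearly measured.

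**Figure D1:**
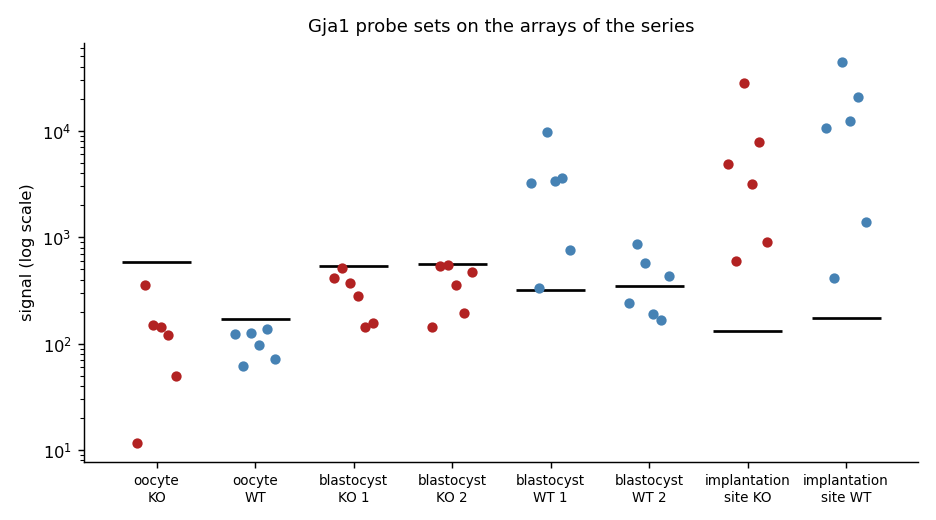
Signal of the 6 Gja1 probe sets (points; red KO, blue WT) on the 8 arrays, on a log axis, with a black bar at the brightest Bacillus control of each array. On both oocyte arrays all 6 points lie below the bar (588 in KO, 171 in WT), whereas implantation site points reach 44493.

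Other gap junction genes gave little signal. Of 23 connexin and pannexin genes listed, 7 were kept and 1 was above the controls on both arrays: Gjc1, connexin 45, read 727 in KO and 1103 in WT, a difference of -0.60. Gja4, which encodes connexin 37, the oocyte's own connexin, read 472 in KO and 159 in WT and was not above the controls on either. Among partners of gap junctions and adhesion genes, 11 were kept, 2 of them 2-fold or more higher and 1 lower. The lower one was Cav1, the caveolar coat protein, at 640 in KO and 1609 in WT. Ctnnb1, beta-catenin, read 49052 and 81107, and Tjp1, the tight junction scaffold ZO-1 that binds connexin 43, read 2603 and 3644. The adhesion molecule Epcam read 1309 in KO and 58.2 in WT, where it was not above the controls, so it was at least 7.67-fold higher. In the region of Gja1 on chromosome 10, the 10 nearest kept genes on each side had a median difference of 0.10, with 5 at least 2-fold higher and none lower by that much. Over the 600 kept genes of the chromosome the median was 0.07 and 120 were at least 2-fold higher, so the share near Gja1 was close to that of the chromosome.

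Across all 12010 kept genes, 2500 were at least 2-fold higher in KO (20.8%) and 1246 lower by that much (10.4%), around a median of 0.09. Of the genes 2-fold apart, 66.7% were thus higher, a share that depends on how the arrays are scaled: it was 51.5% after quantile normalization, 28.0% with a common median, which moves every difference by -0.545, and 96.1% with the hybridization controls held equal, which moves every difference by 0.91. Directions below are therefore relative to the scale of the deposited signals, and the rank of a gene or list among the others is what a shift of all genes leaves in place. The balance also depended on where background was set. Among the 5474 genes above the brightest control of their own array on both arrays, 813 were higher by 2-fold or more (14.9%) and 303 lower (5.54%). That level is lower in WT than in KO, so it admits genes that are dim in WT only. When the KO level of 588 was applied to both arrays, called the common level here, 4226 genes remained, and 87 were at least 2-fold higher (2.06%) against 303 at least 2-fold lower (7.17%). The same 303 lower genes pass either way, as must any gene above 588 in KO and brighter in WT. The higher genes shrink from 813 to 87. The difference also followed brightness. In 8 equal groups of genes ordered by mean signal, the median was 0.26 in the dimmest, 0.55 in the fourth and -0.50 in the brightest. To set this aside, each gene was also compared with the running median of the 501 genes nearest to it in brightness. This brightness-centred difference left 1638 genes 2-fold or more higher (13.6%) and 1715 lower (14.3%).

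**Figure D2:**
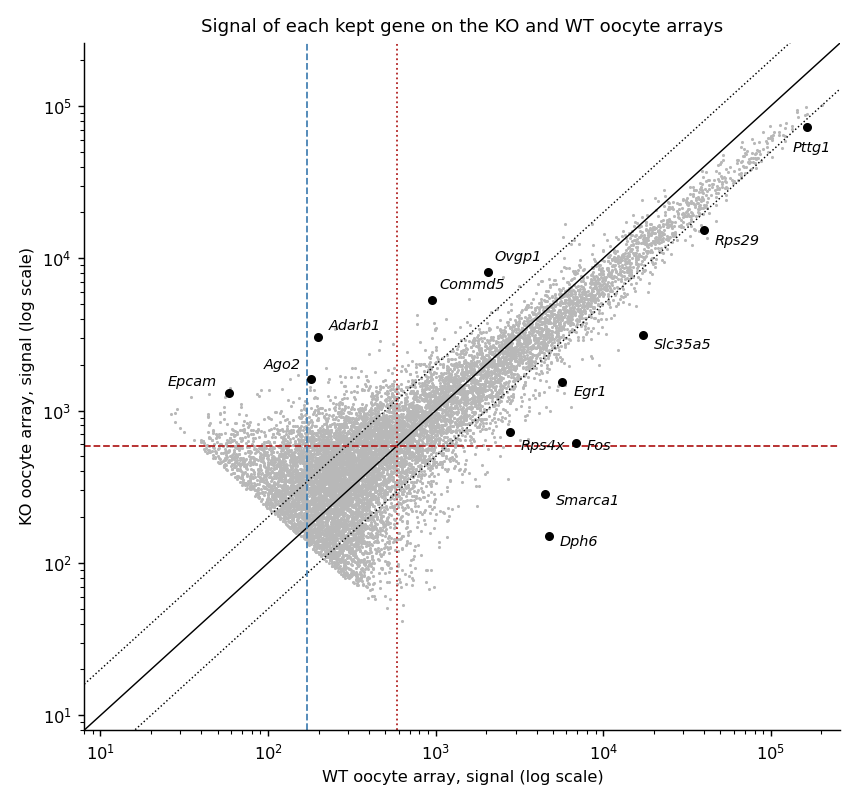
Signal of the 12010 kept genes on the WT (x) and KO (y) oocyte arrays, both on log axes. The solid line marks equal signal and the dotted diagonals 2-fold; the dashed lines mark the brightest Bacillus control of each array (588 in KO, 171 in WT) and the dotted vertical line the KO level of 588 on the WT axis. Bright genes lie mostly below the line of equal signal, among them Fos and Slc35a5, while Commd5 and Ovgp1 lie above it.

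**Figure D3:**
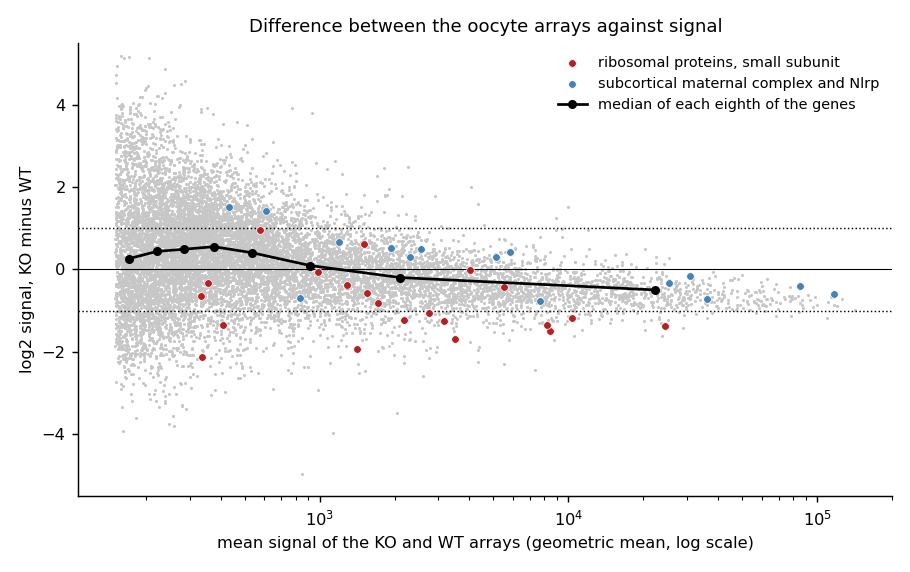
Log2 difference (KO minus WT) of each kept gene against its mean signal (log axis), with the median of each eighth of the genes (black). The medians pass from 0.26 in the dimmest eighth to -0.50 in the brightest; small-subunit ribosomal proteins (red) lie mostly below the black line and genes of the subcortical maternal complex list (blue) mostly at or above it.

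Replicates exist only among the blastocysts and show how far arrays of one genotype differed there. The KO and WT oocyte arrays were at least 2-fold apart for 31.2% of kept genes, against 14.1% for the pair of KO blastocyst replicates and 22.2% for the WT pair. At the common level the shares were 9.23%, 4.96% and 5.94%. The span between the medians of the 8 brightness groups was 1.05 in oocytes, 0.07 for the KO and 0.57 for the WT blastocyst pair. By these shares and spans the oocyte arrays differed more than either replicate pair. The correlation of log2 signals across genes, which are not independent replicates, did not give that order: r was 0.85 for the oocyte arrays over their 12010 kept genes, 0.89 for the KO and 0.84 for the WT blastocyst pair. With 2 pairs there is no test of these differences.

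Ribosomal proteins of the small subunit, the part of the ribosome that reads the mRNA, had the lowest median of the 49 gene lists examined. Counts for this and every later list are to be read beside all kept genes, of which 20.8% were at least 2-fold higher and 10.4% lower. Of 33 listed genes 22 were kept; 11 were at least 2-fold lower, none was at least 2-fold higher, and 20 of the 22 read lower. Their median was -0.94, and -0.78 after centring on equally bright genes, against 0.09 for all kept genes. Of the 18 above the controls on both arrays, 9 were at least 2-fold lower. Rps29, the brightest, read 15225 in KO and 39641 in WT, a difference of -1.38. Rps28 read 6878 and 15599 (-1.18), and Rps20 read 5012 and 14215 (-1.50). Not all bright members differed by that much: Rps2 read 3989 and 4020 (-0.01), and Rps27l read 4735 and 6367 (-0.43). The lowest difference of a member above the controls was that of Rps4x, an X-linked protein of the subunit, at 725 in KO and 2764 in WT (-1.93). Rps14 read 1955 and 6269 (-1.68). Rps19, the protein mutated in many cases of Diamond-Blackfan anaemia, read 161 in KO, not above the controls, and 699 in WT, so it was at least 1.19-fold lower. Only Rps15 and Rps27 read higher in KO: Rps15 at 1878 against 1216, and Rps27 at 796 against 414.

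The large subunit, which forms the peptide bonds, was lower by less. Of 20 kept genes, 6 were at least 2-fold lower and 2 at least 2-fold higher, with a median of -0.37 (-0.11 centred). Rpl27a read 1155 in KO and 3296 in WT (-1.51), and Rpl7a read 1225 and 3207 (-1.39). Rpl11, which also binds the p53 regulator Mdm2 when ribosome assembly is disturbed, read 702 in KO and 313 in WT (1.16). The brightest member, Rpl13a, read 5550 and 6964 (-0.33). Large-subunit genes thus spread over both directions around a median near that of equally bright genes.

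The reading of ribosomal proteins depended on the probe sets used. Probe sets whose identifier carries a suffix (a, s or x) hold probes shared by several transcripts. With the suffix a these are transcripts of the same gene, and with s or x they can belong to different genes. Ribosomal proteins have many pseudogenes. Of 56 ribosomal protein probe sets above the controls on both arrays, 47 were lower in KO and 17 at least 2-fold lower, with a median of -0.52. The 50 with a suffix had a median of -0.56, and the 6 without one had a median of -0.08. That filter leaves out probe sets that are dim in KO. Among the 42 probe sets that stand for the kept genes, the 33 with a suffix had a median of -0.64 and the 9 without one -0.57, with 8 of the 9 lower in KO; Rpl19, for example, read 201, not above the controls, against 617. When every gene was read from unsuffixed probe sets only, the small-subunit list had a median of 0.01. Only Rps18, Rps27, Rps3, Rps25, Rps6 and Rpsa then passed the signal filter, and the bright Rps29, Rps28 and Rps20 did not. Of these, Rps18, Rps3 (415 in KO) and Rps6 (317) were not above the controls in KO. That median therefore does not show how the other kept genes read. Rps18 read 5135 against 13073 in its brightest probe set, and its unsuffixed probe sets, 378 against 28.6 and 396 against 186, were not above the controls in KO. Signal of a gene and of its near-identical copies cannot be told apart by the sets with the suffix s or x. The sets that stand for Rps4x, Rps7 and Rpl7a carry the suffix a, and those of Rps29, Rps20 and Rps14 carry x.

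**Figure D4:**
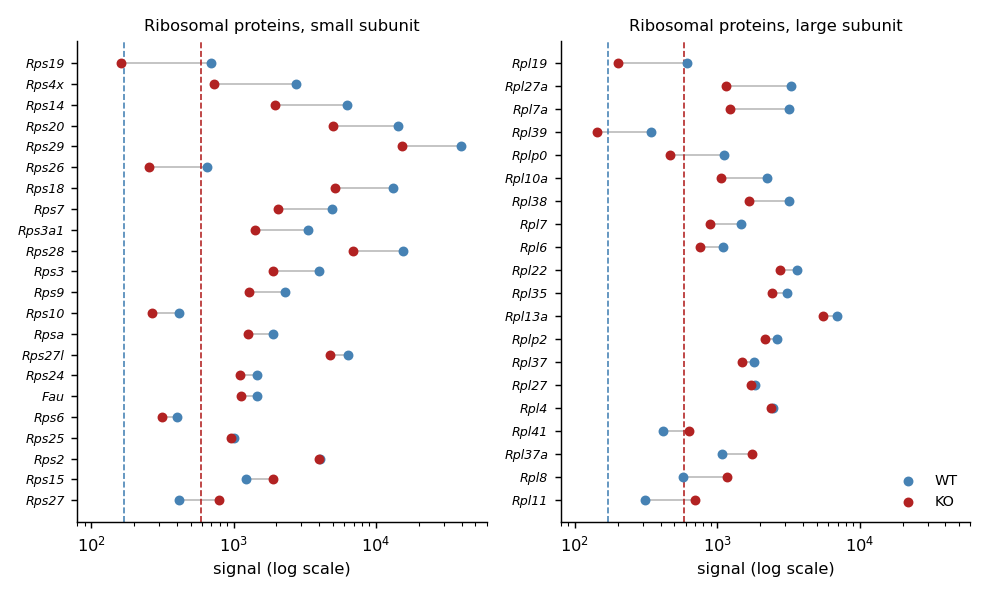
Signal of the kept ribosomal protein genes on the KO (red) and WT (blue) oocyte arrays, on a log axis, ordered by their difference, with dashed lines at the brightest Bacillus control of each array. In the small subunit the KO point lies left of the WT point for 20 of 22 genes; in the large subunit for 16 of 20.

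Promoters of ribosomal protein genes are shown because members of the group differed together. The sequences run from 40 bases before to 10 bases after the RefSeq start, 5' to 3' on the gene's strand, from the RefSeq promoter table of build GRCm38.p6. Capitals mark CGGAAG, the core bound by ETS factors such as GABP, or CTTTC, a pyrimidine run like that at ribosomal protein starts, on either strand. The first 3 genes were at least 2-fold lower in KO, the next 3 were higher.
Rps7 (chr12:28635944-28635993, minus strand): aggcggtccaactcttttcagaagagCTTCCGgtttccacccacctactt
Rps28 (chr17:33824553-33824602, minus strand): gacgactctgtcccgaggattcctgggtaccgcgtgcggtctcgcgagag
Rpl7a (chr2:26910767-26910816, plus strand): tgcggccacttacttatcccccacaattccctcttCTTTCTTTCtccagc
Rps15 (chr10:80292391-80292440, plus strand): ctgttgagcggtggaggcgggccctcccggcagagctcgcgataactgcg
Rps27 (chr3:90213639-90213688, minus strand): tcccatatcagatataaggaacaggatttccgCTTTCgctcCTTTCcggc
Rpl11 (chr4:136053384-136053433, minus strand): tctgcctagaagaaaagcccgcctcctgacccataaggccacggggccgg
Of the 42 kept ribosomal protein genes, 37 had a promoter in the table. In the full window of 300 bases, CGGAAG on either strand was present in 73.0% of these, against 31.0% of 9634 kept genes and 18.8% of all 27025 genes of the table. Among the 14 that were at least 2-fold lower in KO the share was 71.4%, and among the other 23 it was 73.9%. For CTTTC the shares were 92.9% and 78.3%, with 57.9% of the 9634 kept genes and 60.6% over the whole table. These count CTTTC on either strand at any place in the window, so they do not measure a pyrimidine run at the start. The CGGAAG share was thus nearly the same in the lower and the other ribosomal protein genes and a match of letters is a description, not a binding site.

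Initiation factors also mostly read lower, while elongation factors and tRNA synthetases did not. Of 31 kept translation initiation factors, which bring mRNA and the first tRNA to the small subunit, 6 were at least 2-fold lower and 1 at least 2-fold higher, with a median of -0.59. The centred median was -0.21, since many are bright. Eif4a1, the RNA helicase of the cap-binding complex, read 12207 in KO and 33628 in WT (-1.46), and a dimmer probe set read 1148 and 634. Eif2b1, a subunit of the factor that recharges eIF2 with GTP, read 606 and 3435 (-2.50), close to the KO control level. Eif2s2, the beta subunit of eIF2 and the brightest of the list, read 74392 and 113958 (-0.62). Elongation and termination factors had a median of 0.36 over 13 genes, 10 of which read higher, but Eef1a1, which delivers aminoacyl-tRNA, read 4396 and 9382 (-1.09). Cytosolic tRNA synthetases, which charge tRNAs with amino acids, had a median of 0.16 (0.37 centred) over 17 genes. The largest difference of a member above the controls on both arrays was that of Sars, the seryl enzyme, at 1587 in KO and 392 in WT (2.02), although its other probe set read 94.8 and 392. Aars, the alanyl enzyme, read 101, not above the controls, against 528. Ribosome biogenesis and nucleolar genes were split, with 7 of 65 at least 2-fold higher, 8 lower and a median of -0.07. Mitochondrial ribosomal proteins had 12 of 65 at least 2-fold higher and 4 lower, beside 20.8% and 10.4% of all kept genes, with a median of 0.18 (-0.05 centred). As deposited, the lower readings in the translation machinery were thus found mostly in small-subunit proteins, initiation factors and large-subunit proteins (median -0.37). The medians of elongation factors, synthetases and mitochondrial ribosomes lay above 0. After centring the contrast was smaller. The medians were then -0.21 for initiation factors, -0.11 for large-subunit proteins and 0.11 for elongation factors. They were 0.37 for synthetases and -0.05 for mitochondrial ribosomes, against -0.78 for small-subunit proteins.

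The mTOR pathway, which couples nutrients and growth factor signals to translation, had 5 of 24 kept genes at least 2-fold lower and 1 higher, with a median of -0.64 (-0.31 centred). Pdpk1, the kinase that activates AKT, read 5843 in KO and 13829 in WT (-1.24). Lamtor5, a subunit of the Ragulator complex on lysosomes, read 1033 and 2524 (-1.29), and Rheb, the GTPase that switches mTORC1 on, read 28870 and 53431 (-0.89). On the other side Akt1s1, the mTORC1 inhibitor PRAS40, read 969 in KO and 260 in WT (1.90). Its next probe set read 354, not above the controls, and 339 (0.06). Not all members followed the activators named above: Lamtor3, of the same complex as Lamtor5, read 19109 and 18269 (0.06). Of the 24 kept genes, 16 read lower and 8 higher. The higher reading of the inhibitor rested on 1 probe set. With the mean of all probe sets per gene in place of the brightest, the median of the list was 0.17.

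Complex I of the respiratory chain, which passes electrons from NADH to ubiquinone, had the second lowest centred median, -0.65 (-0.53 as deposited). Of 32 kept subunits, 9 were at least 2-fold lower and 5 at least 2-fold higher. Ndufc2 read 3326 in KO and 8483 in WT (-1.35), Ndufc1 read 893 and 2230 (-1.32), and Ndufa5 read 2363 and 5218 (-1.14). Ndufb3 read 382, not above the controls, against 1967, at least 3.35-fold lower. Subunits on the higher side were Ndufa4, now assigned to complex IV, at 1459 in KO and 597 in WT (1.29), and Ndufb8 at 669 and 225 (1.57). With unsuffixed probe sets only, the median of the list was -0.0006. Complexes II to V had 3 of 31 kept genes at least 2-fold lower and 1 higher, with a median of -0.32 (-0.20 centred). Cox6a1 of cytochrome oxidase read 4255 and 11654 (-1.45), and Atp5j of ATP synthase read 616 and 1615 (-1.39). The respiratory chain therefore had members on both sides, the lower ones more numerous.

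Immediate early response genes, transcription factors and regulators that cells induce within minutes of a signal, had 7 of 27 kept genes at least 2-fold lower and 2 higher, with a median of -0.52 (-0.61 centred). Fos, a subunit of the AP-1 transcription factor, had the lowest difference of all genes above the controls on both arrays: it read 615 in KO and 6868 in WT (-3.48). The KO value lay just above the KO control level of 588. Egr1, a zinc finger transcription factor induced by many signals, read 1545 and 5709 (-1.89), and Btg1, an antiproliferative adaptor of mRNA decay, read 2152 and 5321 (-1.31). Nr4a2, an orphan nuclear receptor, read 237, not above the controls, against 1362, at least 2.32-fold lower, but another probe set of it ran the other way, at 684 in KO and 52.4 in WT, where it was not above the controls. Klf4, a pluripotency factor, was at least 1.81-fold lower, at 221 against 1065. Egr3, a relative of Egr1, ran the other way at 1062 in KO and 251 in WT (2.08). Dusp1, a MAP kinase phosphatase and the brightest of the list, read 5093 and 7977 (-0.65).

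Genes of cumulus and granulosa cells, the cells around the egg, read on both sides on the same arrays: 7 of 22 kept genes were at least 2-fold lower and 4 higher, with a centred median of -0.51. Fst, which encodes follistatin, read 629 in KO and 1703 in WT (-1.44). Vcan, the cumulus matrix proteoglycan versican, read 463, not above the controls, against 996, at least 1.69-fold lower. Inhba, the activin beta A subunit, read 596 in KO and 65.1 in WT, and its KO signal was 3.49-fold above the brightest WT control. Slc38a3, an amino acid transporter that cumulus cells provide to the oocyte, read 657 and 123, 3.85-fold above that control. Both KO signals lay close to the brightest KO control of 588, so neither gives a firm fold. Most of these values lay near the control levels. Whether signal of the surrounding cells had a part in the immediate early genes was not tested.

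The egg's own programme is described next. The subcortical maternal complex, a protein lattice under the egg cortex that the first cleavages need, and the related oocyte Nlrp genes had the highest centred median of all lists, 0.50 (0.29 as deposited). All 15 kept members were above the controls on both arrays; 2 were at least 2-fold higher and none lower. Khdc3 (Filia) read 731 in KO and 255 in WT (1.52), and Tle6 read 993 and 370 (1.42). Bright members read lower: Zbed3 read 94618 and 143826 (-0.60), and Nlrp4f read 28023 and 46261 (-0.72). Core members Nlrp5 (Mater), Padi6 and Ooep differed by 0.29, 0.50 and 0.52. The sign of the list's median was not stable, as it was -0.17 when the probe set of each gene was chosen over all 8 arrays and -0.25 when the arrays were scaled to a common median.

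The zona pellucida and egg surface list had 4 of 13 kept genes at least 2-fold higher and 2 lower, with a median of 0.32. Zp2, a zona protein that sperm bind, read 1500 in KO and 747 in WT (1.01). Izumo1r (Juno), the egg's receptor for sperm Izumo1, read 648 and 213 (1.61). Itgav, an integrin chain, read 1396 and 2892 (-1.05), and Mfge8, a secreted glycoprotein that binds integrins, was at least 1.97-fold lower, at 149 against 1160. Secreted oocyte factors had 9 kept genes, none of them 2-fold apart in either direction. Oosp3 read 43680 and 87241 (-0.998), just short of 2-fold, and Oosp1 read 45587 and 77828 (-0.77).

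Oocyte transcription regulators had, among 18 kept genes, 2 that were 2-fold or more higher and 1 lower, with a median of -0.31. Nobox, a homeobox factor of follicle formation, read 1237 in KO and 564 in WT (1.13). Oog4 read 6621 and 3162 (1.07), whereas Obox5, an oocyte homeobox gene, read 37848 and 75452 (-0.995). Maternal effect and zygotic reprogramming factors had 4 of 20 at least 2-fold higher, near the 20.8% of all kept genes, and none lower. Zar1, an RNA-binding protein needed at the oocyte to embryo transition, read 16681 and 8546 (0.96), and Uhrf1, the partner of the maintenance DNA methyltransferase, read 26746 and 48666 (-0.86). These groups showed no common direction.

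Genes that store, translate or destroy maternal mRNA had medians below 0 as deposited. In mRNA storage and translation control 6 of 25 kept genes were at least 2-fold lower and none was higher, with a median of -0.37 (-0.09 centred). After centring 3 were lower and 4 higher by that much. Cpeb4, which directs cytoplasmic polyadenylation late in meiosis, read 5604 in KO and 13145 in WT (-1.23). Pum2, a translational repressor, read 7259 and 16461 (-1.18), and Cpsf3, the endonuclease of mRNA 3' end formation, read 1481 and 3368 (-1.19). Ybx1 and the brightest member Lsm14a read 17403 against 15376 and 67591 against 112376. In maternal mRNA decay 4 of 37 were at least 2-fold lower, near the 10.4% of all kept genes, and 1 higher, with a median of -0.31 (-0.16 centred). Cnot8, a deadenylase, read 2245 and 5522 (-1.30), and Cnot3, a scaffold of the same CCR4-NOT complex, read 3391 and 987 (1.78). Btg4, the adaptor that recruits that complex to maternal mRNA, read 60246 and 77433 (-0.36). Subunits of one deadenylase complex thus read in opposite directions.

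Meiotic genes were mostly within 2-fold. In meiotic maturation and MII arrest 4 of 28 were at least 2-fold higher and 2 lower, with a median of -0.08. Wee2, the oocyte kinase that holds CDK1 inactive, read 58941 in KO and 121103 in WT (-1.04). Prkar2b, a regulatory subunit of protein kinase A, read 2791 and 6136 (-1.14), and Plk1, the mitotic and meiotic kinase, read 1960 and 877 (1.16). Fzr1, the activator of the anaphase promoting complex that holds the prophase arrest, read 831 in KO and 134 in WT, where it was not above the controls. The KO signal of Fzr1 was 4.87-fold above the brightest WT control. It was not far above the brightest KO control of 588, so the fold is not firm. In the list of that complex, cohesin and the spindle checkpoint, 5 of 38 were at least 2-fold higher and 1 lower. The lower one was Pttg1, securin, which guards cohesin until anaphase, at 72528 and 164364 (-1.18; -0.50 centred). Spindle and microtubule genes had 1 of 37 higher and 2 lower, among them Mapre2, a microtubule end-binding protein, at 46174 and 100846 (-1.13).

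RNA processing was another place of lower readings among bright genes. Of 47 kept spliceosome and hnRNP genes, 7 were at least 2-fold lower and none was higher, with a median of -0.44; centred on equally bright genes it was -0.09. Hnrnpk read 6842 in KO and 18837 in WT (-1.46), and Hnrnpr read 3257 and 8019 (-1.30), both binding nascent mRNA. RNA editing and modification had 6 of 24 at least 2-fold higher and 4 lower, beside 20.8% and 10.4% of all kept genes. Adarb1, the adenosine deaminase ADAR2, had the largest higher value of all genes above their own array's control on both arrays: it read 3026 in KO and 199 in WT (3.92). The WT value lay just above the WT control level, and other probe sets of Adarb1 read 122 against 226 and 62.3 against 77.5. In the small RNA and transposon silencing list 8 of 25 were at least 2-fold higher and none lower, with a median of 0.29 (0.33 centred). Of these 8, 4 (Ago1, Piwil4, Prkra and Tdrd9) were not above the controls on either array, and over the 16 members above them on both the median was -0.07, with 2 at least 2-fold higher. Ago2, the slicer of RNA interference, read 1604 and 179 (3.16), but its next probe set read 328 and 400. Dicer1, which cuts the small RNAs and is needed in mouse oocytes, read 14162 and 19141 (-0.43).

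Protein quality control held both directions, with counts to be set beside the 20.8% higher and 10.4% lower of all kept genes. Proteasome subunits had 2 of 31 kept genes at least 2-fold lower and none higher, with a median of -0.27 (-0.19 centred). The CCT chaperonin and prefoldin list had 2 of 14 lower and none higher; Cct6a was at least 4.63-fold lower, at 358 against 2718. Heat shock proteins had 5 of 23 at least 2-fold higher and 2 lower, with a median of -0.20 that became 0.29 after centring. Hspb1, a small heat shock protein, read 791 in KO and 252 in WT (1.65), and Hspa8, the constitutive HSP70, read 4361 and 9858 (-1.18). The unfolded protein and integrated stress response had 4 of 31 higher and none lower, with Sdf2l1, an endoplasmic reticulum chaperone partner, at 860 and 330 (1.38). In the apoptosis list 5 of 27 were at least 2-fold higher and 2 lower; Bcl2, which blocks apoptosis, read 1009 and 219 (2.20), and Diablo, which releases caspases from inhibition, read 870 and 198 (2.13). A blocker and an activator of apoptosis thus both read higher, each from a WT value near the control level.

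Metabolic lists also held both directions, again beside 20.8% higher and 10.4% lower of all kept genes. Pyruvate, lactate and tricarboxylic acid cycle genes had 7 of 27 at least 2-fold lower and 3 higher, with a median of -0.31 (-0.04 centred). Idh1, the cytosolic isocitrate dehydrogenase, read 13087 in KO and 27392 in WT (-1.07), and Mdh2, the mitochondrial malate dehydrogenase, read 980 and 2253 (-1.20). Glycolysis and glucose transport had 2 of 17 higher and 2 lower, with Aldoa, aldolase, at 1538 and 3421 (-1.15); another Aldoa probe set read 1204 and 598 (1.01). Cholesterol synthesis and uptake, which cumulus cells carry out for the oocyte, had 2 of 20 higher and 1 lower, and Insig1, the sterol sensor partner, read 14753 and 26682 (-0.85). Among antioxidant genes 4 of 25 were higher and 2 lower; Gpx4, which reduces lipid peroxides, read 1301 and 598 (1.12), and Sod1, the cytosolic superoxide dismutase, read 19077 and 30563 (-0.68).

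Chromatin and transcription lists lay near equally bright genes. Of all kept genes, 20.8% were at least 2-fold higher and 10.4% lower. DNA methylation and histone modification had 4 of 44 higher and 3 lower (centred median 0.09), with the demethylase gene Kdm4a at 1597 in KO and 498 in WT (1.68). Histones and their chaperones had 4 of 24 higher and none lower; Slbp, which binds histone mRNA, read 49059 and 76824 (-0.65). Nuclear pore and transport genes had 3 of 38 in each direction, and Ipo8, an importin, read 14994 and 37222 (-1.31). In RNA polymerase II and general factors 5 of 35 were higher and 5 lower, with Taf2 of TFIID at 1122 and 2787 (-1.31). Over all 49 lists, 34 medians were below 0 and 15 above as deposited, and 40 lay within 0.3 of equally bright genes after centring. The kept genes include dim ones: among members above the controls on both arrays, 42 of the 49 medians were below 0, and the sign turned for 10 lists. These were connexins, ribosome biogenesis, RNA editing, antioxidant, zygotic activation, amino acid transport, glycolysis, maternal effect, small RNA and zona genes, whose medians then lay between -0.60 and 0.02.

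**Figure D5:**
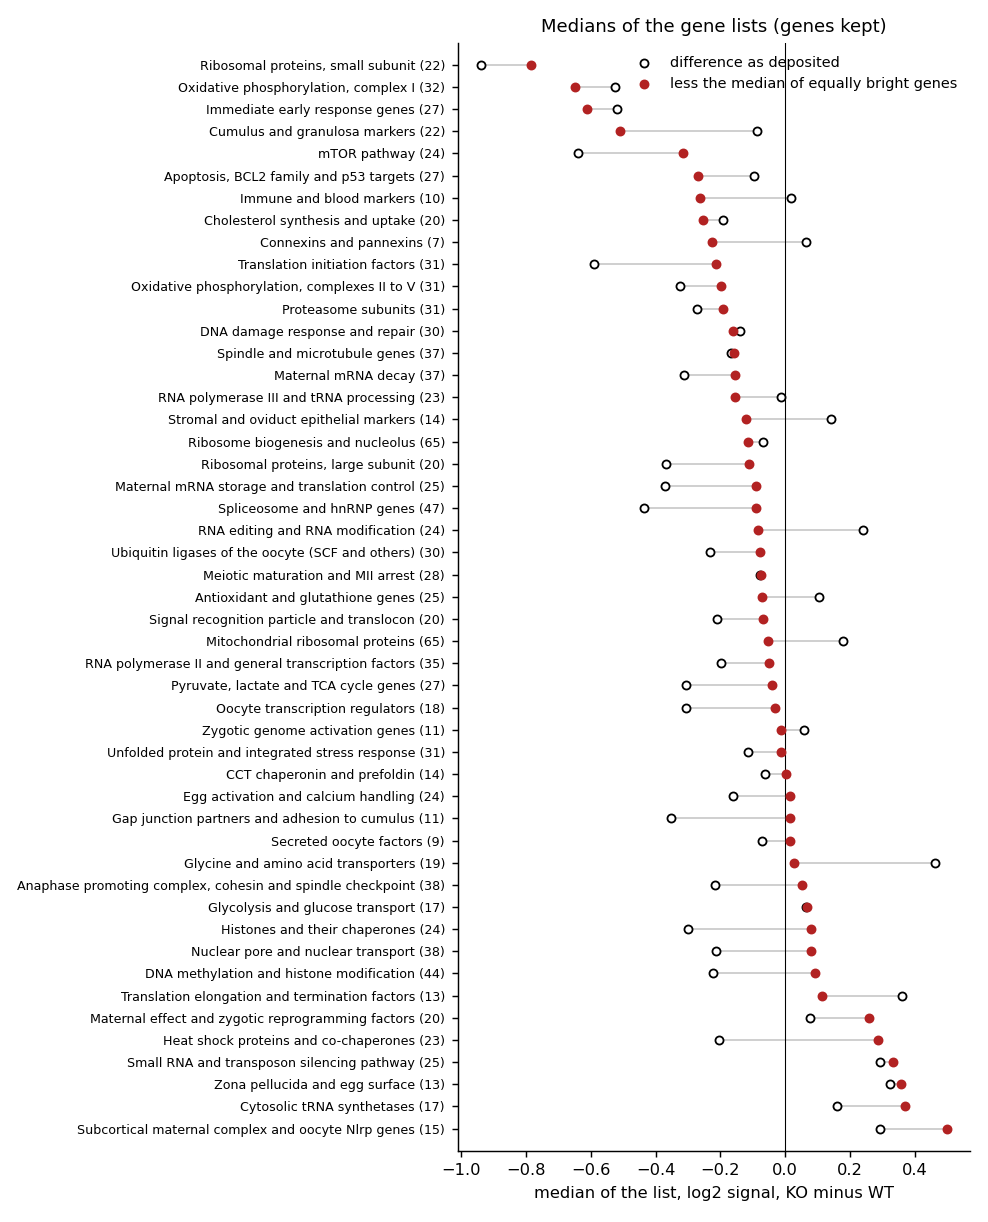
Median difference (log2, KO minus WT) of each of the 49 gene lists, with the number of kept genes in brackets, as deposited (open) and after subtracting the median of equally bright genes (red). The small-subunit ribosomal proteins are lowest in both (-0.94 and -0.78) and the subcortical maternal complex list is highest after centring (0.50).

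Single genes with the lowest readings in KO came from several functions. Beside Fos and Eif2b1, Slc35a5, a member of the nucleotide sugar transporter family, read 3143 in KO and 17201 in WT (-2.45), and further probe sets of it read 1374 against 3781 and 768 against 493. Armcx2, an X-linked armadillo repeat gene, read 1063 and 6428 (-2.60), while another of its probe sets read 793 and 843. Ssbp1, which coats single-stranded mitochondrial DNA, read 647 and 3561 (-2.46). These genes were far apart in KO and WT, but probe sets of a gene did not always follow each other. Cops2, a subunit of the COP9 signalosome, read 1986 and 9439 (-2.25), with another probe set at 654 and 352. Cttn, the actin regulator cortactin, read 2502 and 12198 (-2.29), Lasp1, an actin-bound LIM protein, read 1299 and 5797 (-2.16; another probe set 1059 and 292), and Fscn1, the actin bundler fascin, read 1357 and 5301 (-1.97). Khdc1a, a KH domain gene of oocytes with 1 probe set, read 1059 and 4529 (-2.10). Rer1, Cxcl1, Hmgn3, Derl1 and D2hgdh completed the 15 lowest, between -1.98 and -2.30. Of the 15, 4 had further probe sets above the controls on both arrays, 9 in all, of which 4 read in the same direction and 5 in the opposite one. Over all genes named here that were at least 2-fold apart, 12 had a probe set above the controls on both arrays that read the opposite way.

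Genes above the controls in WT only give a bound. Dph6, an enzyme that makes the diphthamide of elongation factor 2, read 151 in KO and 4748 in WT and was at least 8.08-fold lower. Smarca1, an ISWI chromatin remodeller, was at least 7.64-fold lower, at 285 against 4492. Id2, an inhibitor of basic helix-loop-helix factors, was at least 4.09-fold lower, at 501 against 2405. Zfand3, Baz2b, Krtcap2 and Ndufb3 had bounds between 3.35 and 4.29. In all, 4747 kept genes were above the controls in WT only and 283 in KO only, which follows the unequal control levels of the arrays. Among the 283, Ss18l1, a chromatin remodelling subunit, was at least 10.03-fold higher, at 1712 in KO and 151 in WT. Kdf1, a keratinocyte differentiation gene, was at least 9.44-fold higher, at 1611 against 135. Rab11fip4, Fbll1, Smg9, Nacad, Epcam and Vmn1r44 followed, with bounds between 7.51 and 8.20.

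The highest readings in KO depended on the control level used. By each array's own level the list was led by Adarb1, then Cnpy2, a protein of the endoplasmic reticulum, at 3446 in KO and 250 in WT (3.78), Ago2, and Top2b, a DNA topoisomerase, at 1900 and 222 (3.10). All 15 genes of that list had a WT signal of at most 398, below the KO control level. Above the common level, a ranking added after the values were seen, Commd5, a COMM domain protein, led with 5346 in KO and 957 in WT (2.48). Dcpp1, a secreted protein of the oviduct that is known to act on early embryos, followed with 4237 and 776 (2.45). Bcar3, a signalling adaptor, read 3718 and 773 (2.27), and Ovgp1, oviductin, a glycoprotein that the oviduct adds to the zona of ovulated eggs, read 8096 and 2042 (1.99). Ptbp1, a splicing repressor, read 3733 and 972 (1.94), although its other probe sets were not above the controls on both arrays. Krt42, Hdac11, Stom, Atxn2l, Fbxo36, Cnot3, Ttc3, Prpsap1, Tlr3 and Aplp2 completed the 15, between 1.59 and 1.83. Of these 15 genes, 5 had 6 further probe sets above the controls on both arrays, of which 5 read in the same direction.

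Secreted products of the oviduct formed a small group that was singled out after its values were seen. Dcpp3, a relative of Dcpp1, read 1659 in KO and 288 in WT (2.53), so that Ovgp1, Dcpp1 and Dcpp3 all read higher on the KO array. None of the 3 exceeded 902 on any blastocyst or implantation site array. The oviduct epithelial marker Krt18 read 1044 in KO and 210 in WT. Krt8 (549 and 274) was not above the controls in KO, and Krt19 (129 and 146), Pax8 (105 and 161) and Muc1 (103 and 65.1) were not above them on either array. The part of oviduct cells in these readings was not tested.

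Transcripts typical of oocytes were compared with widely expressed ones. Genes at least 8-fold brighter in oocytes than at the other stages numbered 614, and had a median of -0.33; 24 were at least 2-fold higher and 30 lower. Their centred median was 0.02, as they are bright. Genes within 2-fold of the brighter other stage numbered 5396, with a median of 0.25, 1355 higher and 451 lower. At the common level the medians were -0.37 and -0.19. Among oocyte-enriched genes the lowest were Ccdc18 at 912 and 2480 (-1.44), the transcription factor gene Pou4f1 at 17655 and 47064 (-1.41), and Dsn1, a kinetochore subunit, at 6136 and 15430 (-1.33). The highest after Dcpp1 was Nrap, at 2010 and 856 (1.23). The stored transcripts that define the egg were thus close to equally bright genes on the KO array, with few beyond 2-fold.

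The blastocyst arrays carry the same genotype contrast in other samples. Of the 303 genes at least 2-fold lower in oocytes above the common level, 124 (40.9%) were lower on both KO than on both WT blastocyst arrays without overlap, against 36.1% of all 4226 genes at that level. Of the 87 higher genes, 30 (34.5%) were higher in KO blastocysts without overlap, against 15.2% of all. Genes higher on both contrasts included Commd5, Stom, Fbxo36, Ttc3 and Aplp2. The brightest Bacillus control was also higher on the KO blastocyst arrays, 535 and 560 against 322 and 345 on the WT ones, and its part in the shared direction was not tested. For the lower genes, the share in blastocysts was close to that of all genes.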

How the data were processed

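The authors deposited 1 linear signal intensity per probe set and array, made with MAS5 per the submitters' processing notes; in these intensities the mean after trimming 2% at each end was 500 on every array. Control levels, filters and differences were computed with Python 3.11.15, numpy 2.4.6 and pandas 2.3.3 on the deposited intensity values with no further normalization, no background subtraction and no pseudocount. Probe sets were named through the platform's annotation, and 18033 of 18195 genes matched the RefSeq gene table, which updated their symbols. For a gene with several probe sets, the one brightest on average (mean log2) on the KO and WT oocyte arrays stood for it. Named genes were all probe sets of Gja1, the 15 largest differences in each direction above the controls on both arrays, the 8 largest bounds in each direction and, per list, up to 4 largest, 3 brightest and 2 largest bounds; genes with clone or model names only (772 kept) were not named. A bound divides the brighter signal by the higher of the dim signal and the brightest control of the dim array. It takes the brighter signal at face value, so a bound higher in KO is not firm where the KO signal lies near the KO control level of 588. The genes, lists and groups described here were chosen with earlier results of these data known. The steps were tested on simulated data. Replicates exist in blastocysts only and may be technical, as the labels do not say that they came from separate animals. Their number limits the precision, and the oocyte values carry no error. Alternatives were another scaling (quantile, common median, hybridization controls), a pseudocount of 89.2, other filters, other choices of probe set and other control levels. Protein sequences and probe positions were not used here.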

Additional observations from a re-analysis of the deposited data

Results flagged for a closer look

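Several values read one way in oocytes and the opposite way in every KO and WT pairing of the blastocyst arrays; these differences between the stages were not tested. Of the 18 single genes, 6 were above the brightest control on both oocyte and all 4 blastocyst arrays: Khdc3 (1.52 in oocytes), Diablo (2.13), Prpsap1 (1.66), Ndufb8 (1.57), Ptbp1 and Cpsf3 (-1.19). The others were at or below the control level on at least 1 array, so their differences there have no firm size. Armcx2 differed by -2.60 in oocytes and by 3.04 to 3.97 over the 4 blastocyst pairings, where none of its signals was above the controls. Ptbp1, above them throughout, differed by 1.94 in oocytes and by -2.16 to -1.25. Egr1 differed by -1.89 in oocytes and by 0.82 to 2.21 in blastocysts, again not above the controls there, while the immediate early list as a whole had medians of -0.52 and of 0.03 to 0.08. Cell cycle regulators that read higher in KO oocytes and lower in KO blastocysts were Fzr1 (2.63 in oocytes, not above the controls in WT) and Plk1 (1.16). Sdf2l1 (1.38) read the same way, and so did Gja4 (1.57) and Ago1 (3.28), which were not above the controls on either oocyte array. Lower in KO oocytes and higher in KO blastocysts were Mfge8 (-2.96), Aars (-2.39), Rpl19 (-1.62) and Vcan (-1.10), all not above the controls in KO oocytes, and Fst (-1.44). Fst and Vcan were not above the controls on any blastocyst array. Of whole lists, cumulus and granulosa markers (-0.089 in oocytes) and secreted oocyte factors (-0.070 in oocytes, 0.71 to 1.38 in blastocysts) read higher in KO blastocysts. Cytosolic tRNA synthetases (0.16), mitochondrial ribosomal proteins (0.18), maternal effect factors (0.077) and glycolysis genes (0.065) read lower there. Those list medians in oocytes were small beside the span of 1.05 between gene medians of different brightness. No group had enough arrays to look for an outlying sample.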

How the results depend on the processing

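No paired analysis was possible because the oocytes have 1 array per genotype and share no second replicate number. Leaving out an array was not possible for the same reason. Where a value moved, the cause was not tested. The 2500 higher genes became 1302 with a common median, 6005 with no filter, 1220 with the upper 30% of probe sets, and, in alternatives chosen after seeing the data, 6014 with the hybridization controls held equal and 1638 after centring by brightness; other settings gave 1810 to 2810. The 1246 lower genes became 3346, 2084, 641 and 246 in the first 4 of these settings, and 745 on averaging the probe sets of a gene. Of genes above the controls on both arrays, the 813 higher became 316 with a common median, 539 with the mean of all probe sets, 2403 with equal hybridization controls, 534 after centring, 2492 with the median Bacillus level, 87 at the common level and 1501 with 15 Bacillus controls (chosen after seeing the data). The 303 lower became 119 after quantile normalization, 1549, 104, 17, 167 and 979 in the first 5 of those settings, and 170 with unsuffixed probe sets. The median of all genes, 0.09, was -0.45 with a common median, 0.34 with no filter and 1.00 with equal hybridization controls. The small-subunit median of -0.94 was -1.48 with a common median, -0.47 with the mean of all probe sets, 0.013 with unsuffixed probe sets (over the few genes with one that passed the filter) and -0.032 with equal hybridization controls. Complex I, at -0.53, was -1.07, -0.038, -0.0006 and 0.38 in those settings. The subcortical maternal complex list, at 0.29, was -0.25 with a common median, -0.17 with probe sets chosen over 8 arrays and 1.20 with equal hybridization controls. Immediate early genes, at -0.52, were -0.70 after quantile normalization, -1.07 with a common median, -0.39 with the pseudocount, -0.42 with no filter, -0.61 after centring and 0.39 with equal hybridization controls. Initiation factors reached 0.32 and the mTOR list 0.27 with equal hybridization controls, and the mTOR list 0.17 on averaging probe sets. Of 130 named genes at least 2-fold apart, 14 turned sign on averaging probe sets: Rps4x 0.59, Rps18 0.60, Cttn 0.56, Ssbp1 0.76, Fscn1 0.99, Zfand3 0.81, Baz2b 0.83, Itgav 1.08, Pum2 0.53, Pttg1 0.69, Aldoa 0.089, Taf2 0.45, Ccdc18 1.29 and Sars -0.015. With unsuffixed probe sets 9 turned sign: Rps18 1.09, Cttn 3.83, Derl1 0.21, Id2 0.27, Hspa8 0.48, Ttc3 -1.16, Tlr3 -0.15, Ss18l1 -0.83 and Rab11fip4 -0.064. No other setting turned the sign of a named gene at least 2-fold apart, but several could not have done so. A shift of all genes by -0.545 (common median) or 0.91 (hybridization controls) is smaller than such a difference. A pseudocount or another filter also leaves its sign in place. Values near the control level of an array, above all WT signals under 588 set against the KO array, carry the least weight.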
